A study of Homo sapiens with 6 samples.

Results

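CDK inhibitors and D-type cyclins set whether a cell leaves G1. The genes described here are 10 genes of that switch, chosen by name: the CIP/KIP inhibitors CDKN1A, CDKN1B and CDKN1C, the INK4 inhibitors CDKN2B, CDKN2C and CDKN2D, the D-type cyclins CCND1, CCND2 and CCND3, and the kinase CDK6. All 10 were among the 28395 gene IDs of the count files, matched through their NCBI Gene ID. They were compared in HCT116, an established human colorectal cancer line, after 24 h of treatment. There were 3 libraries from cells given TR-107 at 50 nM and 3 from cells given its vehicle alone, 0.1% DMSO. TR-107 is an agonist of ClpP, a protease of the mitochondrial matrix, and the study asked how its activation changes gene expression in these cells. Cells were plated 1 day before treatment, and poly(A)-selected RNA was sequenced. The cells are 1 line, and the series' text calls the libraries biological replicates without saying how cultures were kept apart, so each p-value rests on library-to-library spread alone, which may be technical.

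D-type cyclins bind CDK4 or CDK6 in G1, and the kinase then phosphorylates RB, which frees E2F factors to switch on S-phase genes. INK4 proteins bind CDK4 and CDK6 and keep D-type cyclins away. CIP/KIP proteins bind whole cyclin-CDK complexes and act most strongly on those of CDK2. Much of this control acts on the proteins, through phosphorylation and ubiquitin, and RNA counts do not show it.

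After TR-107, the inhibitors CDKN1A, CDKN2B and CDKN1B rose and the inhibitors CDKN2C and CDKN2D fell, as did CCND1, CCND3 and CDK6. CDKN1C did not pass the test, and CCND2 had no count in any library. Thus 3 of the 9 tested members rose and 5 fell. A gene was called where the quasi-likelihood test of edgeR, fitted on all genes, gave a p of at most 0.05 after Benjamini-Hochberg adjustment. Of the 13767 genes tested, 57.8% were called, 29.2% as higher and 28.6% as lower, so calls were common in these libraries. CDKN1A, CDKN2B and CCND3 changed at least 2-fold, which is 3 of 9 beside 10.3% of all genes, and the other called members changed less. The 3 TR-107 libraries lay wholly above or wholly below the 3 DMSO libraries for 7 of the 9, 3 above and 4 below, beside 62.4% of all genes tested (31.5% above and 30.9% below). In a test against a change of 1.5-fold, CDKN1A, CDKN2B and CCND3 passed and CDKN1B, CDKN2C, CDKN2D, CCND1 and CDK6 did not. That test called 1723 of the 13767 genes. The median log2 fold change was -0.40 over the 9 tested members and 0.012 over all genes tested.

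**Figure D1:**
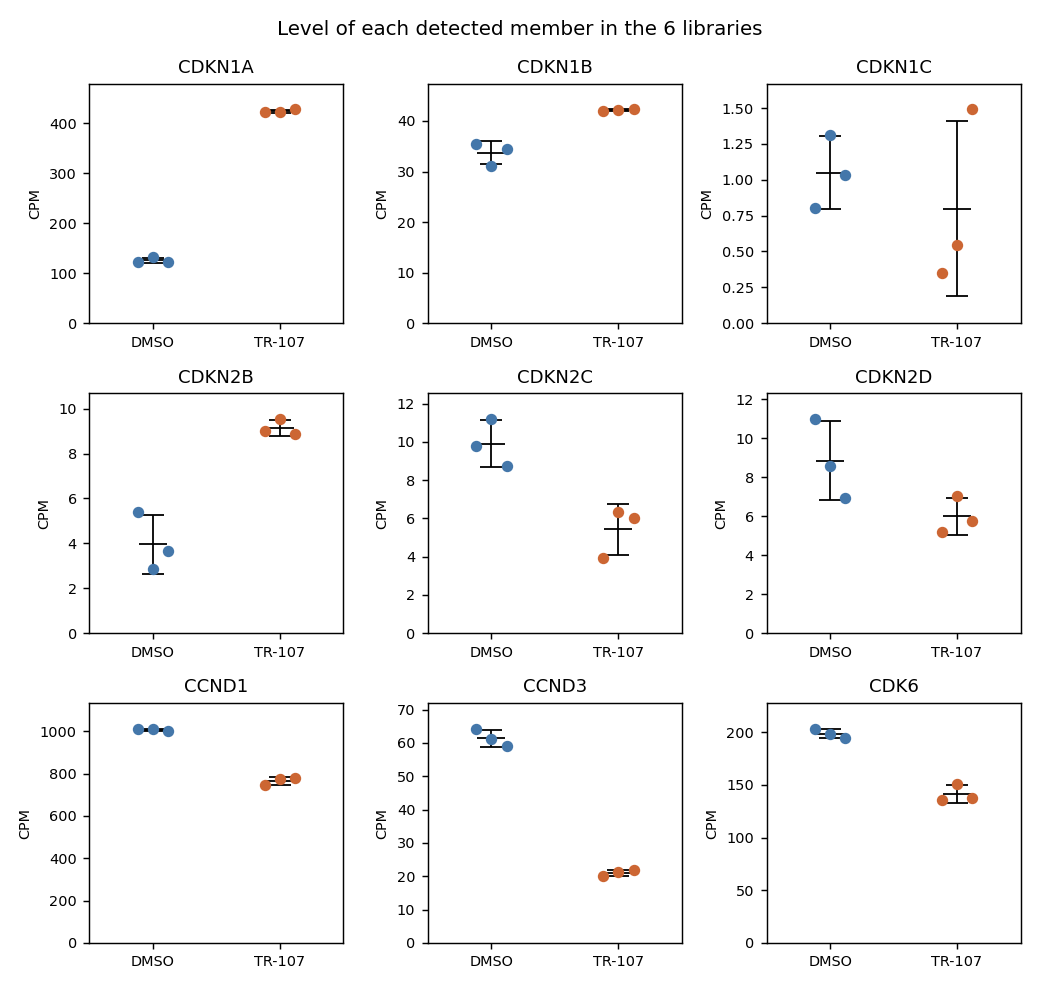
CPM, read counts scaled to library size (vertical axes, each starting at 0), of the 9 members with counts, in the 3 DMSO and 3 TR-107 libraries (points), with the group mean and SD (bars). The groups lie apart for 7 of the 9 genes, and overlap for CDKN1C and CDKN2D.

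The RefSeq promoter table (GRCh38.p14) held 12 start sites for 7 of the members. It held none for CDKN1C, CCND1 and CCND2, so the window counts below do not cover those genes. The DNA before a start site is shown for the 3 members that changed at least 2-fold, 5′ to 3′ on the gene's strand, in lower case with each GC box in capitals. Bases next to the start that GENCODE 29 marks as exon are left off. A GC box, the letters GGGCGG on either strand, is the site that SP1 and SP3 bind.
CDKN1A, chr6:36678464-36678657, + strand: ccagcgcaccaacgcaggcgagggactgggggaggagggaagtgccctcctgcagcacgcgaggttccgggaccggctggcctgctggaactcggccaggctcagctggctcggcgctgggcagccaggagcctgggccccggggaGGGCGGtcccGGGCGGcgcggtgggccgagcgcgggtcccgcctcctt
CDKN2B, chr9:22009364-22009555, - strand: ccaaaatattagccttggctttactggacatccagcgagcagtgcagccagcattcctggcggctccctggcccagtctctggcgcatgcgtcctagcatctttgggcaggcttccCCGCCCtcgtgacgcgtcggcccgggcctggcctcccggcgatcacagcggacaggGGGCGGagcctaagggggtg
CCND3, chr6:41941849-41942058, - strand: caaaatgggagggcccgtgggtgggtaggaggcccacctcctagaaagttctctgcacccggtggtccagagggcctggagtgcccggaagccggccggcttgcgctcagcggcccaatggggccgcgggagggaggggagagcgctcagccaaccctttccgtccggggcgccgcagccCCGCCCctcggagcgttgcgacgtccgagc
In the full 250 bases before these starts there were 4 GC boxes for CDKN1A, 2 for CDKN2B and 2 for CCND3, counting overlaps. At least 1 GC box lay in 9 of the 12 windows of the members, and in 42.6% of all 35116 windows of that length in the table. The GC box is made of G and C only. Those letters were 76.4% of the full 250 bases for CDKN1A, 66.4% for CDKN2B and 71.2% for CCND3. The median over all windows was 58.0%. Some of the 12 windows share a gene or lie wholly in exons. Whether GC boxes are more common before the members at equal base content was not tested. The E2F words TTTGGCGC, TTTCCCGC, TTTGCCGC and TTTCGCGC were in 0 of the 12 windows (2.79% of all windows). The cyclic AMP response element TGACGTCA was in 0 (1.65%) and TGATGCAA, a composite site of ATF4 and C/EBP factors, in 0 (0.772%). CCAAT was in 5 (32.0%), the E-box CACGTG in 2 (6.34%) and the TATA box TATAAA in 0 (10.7%). All were sought on both strands. The GC box is thus found before genes that rose and before the shown start of CCND3, which fell. CCND3 has 3 start sites in the table and gene counts do not say which was used. Its window at 41939206 to 41939455 had 0 GC boxes. The window at 42048689 to 42048938 had 5, but lay wholly in sequence that GENCODE 29 marks as exon. The RefSeq span of CDKN1A begins at 36676463, before the window shown for it. Counts of CDKN1A do not say which start was used either.

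CDKN1A encodes p21, an inhibitor that halts the cycle under stress, and had the highest fold change of the members. Its level was, in CPM (counts scaled to a common library size, here with TMM factors), 123, 132 and 122 in DMSO and 422, 423 and 428 in TR-107. The TR-107 libraries lay within a few CPM of each other and far above every DMSO library. The rise was 3.38-fold (log2 fold change 1.76 ± 0.043, SE; 95% interval 1.67 to 1.84; edgeR adjusted p = 5.62e-32), rank 268 from the top of the 13767 genes. CDKN1A (gene ID 1026) spans chromosome 6, 36676463 to 36687332, and its span overlaps DINOL, a noncoding RNA. The strand setting of the counting is not given in the sources used here, so reads of DINOL cannot be told from those of CDKN1A.

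CDKN1B encodes p27, which restrains CDK2 in resting cells and is mostly controlled by its breakdown. It was at 35.5, 31.2 and 34.4 CPM in DMSO and at 42.0, 42.1 and 42.3 CPM in TR-107. All 3 TR-107 libraries were above all DMSO libraries, but the rise was small, at 1.25-fold (log2 fold change 0.32 ± 0.081, SE; edgeR adjusted p = 0.000705). CDKN1B (gene ID 1027) lies on chromosome 12, 12717368 to 12722369, with no overlapping gene in RefSeq.

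CDKN1C encodes p57, an imprinted inhibitor best known from development. It had 15, 30 and 25 counts in the DMSO libraries and 6, 10 and 32 in the TR-107 libraries. The TR-107 libraries held both the lowest and the highest of the 6 values, so the groups overlapped. The 95% interval of the log2 fold change ran from -1.47 to 0.73 (edgeR adjusted p = 0.584), which spans 0 and is wide at these counts. CDKN1C (gene ID 1028) lies on chromosome 11, 2883218 to 2885775. Its value moved with the libraries used and was called in none of these fits. The log2 fold change was -1.21 without TR-107 replicate 3, -0.030 without TR-107 replicate 1, -0.16 without TR-107 replicate 2 and -0.19 without DMSO replicate 2, beside -0.37 with all 6.

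The INK4 genes, whose proteins bind only CDK4 and CDK6, did not move together. CDKN2B, which encodes p15, the inhibitor induced by TGF-beta, was at 5.40, 2.84 and 3.64 CPM in DMSO and at 8.997, 9.53 and 8.85 CPM in TR-107. Every TR-107 library was above every DMSO library, and the DMSO libraries were the more scattered. The rise was 2.32-fold (log2 fold change 1.21 ± 0.21, SE; 95% interval 0.80 to 1.63; edgeR adjusted p = 2.72e-06). CDKN2B (gene ID 1030, chromosome 9, 22002903 to 22009313) overlaps its antisense RNA CDKN2B-AS1. That RNA had between 8 and 19 counts in the DMSO libraries, between 8 and 26 in the TR-107 libraries, and was not called (edgeR adjusted p = 0.265). CDKN2B itself had 65 to 101 counts in DMSO and 154 to 190 in TR-107. The number of reads assigned to CDKN2B-AS1 was thus below that of CDKN2B in every library, although strands could not be separated.

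CDKN2C (gene ID 1031, chromosome 1, 50960745 to 50974634) encodes p18, an INK4 inhibitor active in many dividing cells. It was at 9.79, 11.2 and 8.73 CPM in DMSO and at 3.91, 6.36 and 6.01 CPM in TR-107. The groups did not overlap, and TR-107 replicate 1 was the lowest library. The gene was 1.82-fold lower (log2 fold change -0.86 ± 0.19, SE; 95% interval -1.24 to -0.49; edgeR adjusted p = 0.000109).

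CDKN2D (gene ID 1032, chromosome 19, 10566460 to 10568979) encodes p19, the INK4 inhibitor whose RNA is known to vary over the cycle. It was at 10.97, 8.57 and 6.95 CPM in DMSO and at 5.20, 7.01 and 5.73 CPM in TR-107. DMSO replicate 3 lay just under TR-107 replicate 2, so the groups overlapped. CDKN2D was called as 1.47-fold lower (log2 fold change -0.55 ± 0.19, SE; adjusted p = 0.0108 by edgeR). It lost the call without DMSO replicate 1 (log2 fold change -0.38, adjusted p = 0.130) or without TR-107 replicate 1 (-0.47, adjusted p = 0.0518). The 95% interval of CDKN2B lay above 0 and those of CDKN2C and CDKN2D below it. Libraries do not sort cells by phase, so a changed share of cells in a phase and a changed RNA level per cell cannot be told apart for any of these genes.

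**Figure D2:**
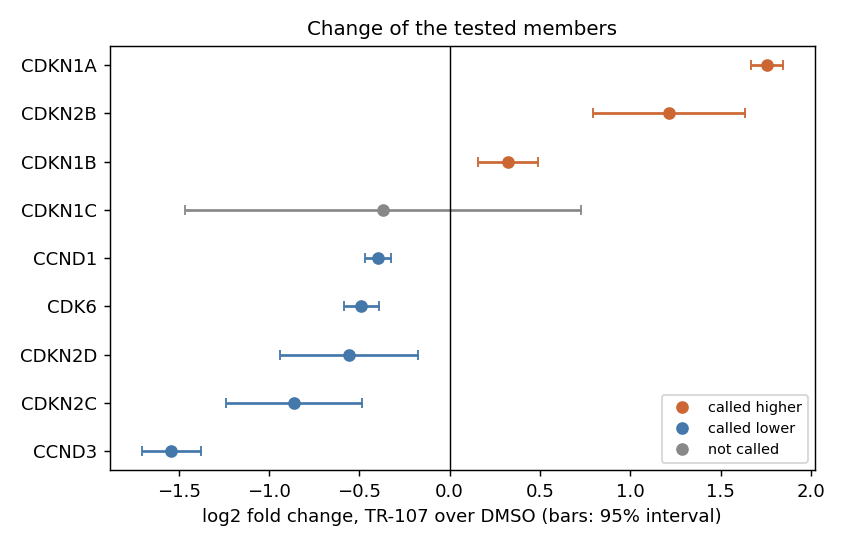
The log2 fold change of TR-107 over DMSO (horizontal axis) for the 9 tested members, with 95% intervals from the edgeR fit (bars) and the call by colour. CDKN1A, CDKN2B and CDKN1B lie to the right of 0, and CCND3, CDKN2C, CDKN2D, CDK6 and CCND1 to the left.

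Both detected D-type cyclins fell, by unequal amounts. CCND1 (gene ID 595, chromosome 11, 69641156 to 69654474) encodes cyclin D1, a target of Wnt and growth factor signalling. It was at 1009.6, 1012 and 1003 CPM in DMSO and at 744, 774 and 778 CPM in TR-107. The groups were far apart beside their spread, and the fall was 1.32-fold (95% interval of the log2 fold change -0.47 to -0.32; edgeR adjusted p = 9.89e-13).

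CCND3 encodes cyclin D3, which pairs with the same kinases. It was at 64.2, 61.1 and 59.0 CPM in DMSO and at 20.1, 21.3 and 21.9 CPM in TR-107. Every TR-107 library was under every DMSO library. CCND3 was 2.91-fold lower (log2 fold change -1.54 ± 0.081, SE; 95% interval -1.70 to -1.38; edgeR adjusted p = 2.89e-20), rank 203 from the bottom of the 13767 genes. It has gene ID 896, and its span on chromosome 6, 41934933 to 42050035, overlaps an uncharacterised locus and a small RNA pseudogene. The intervals of CCND1 and CCND3 did not overlap. The difference between them was not tested.

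CCND2, the cyclin D2 gene, had 0 counts in all 6 libraries, as did its antisense RNA CCND2-AS1. A count of 0 allows up to 3 counts, which is 0.124 to 0.175 CPM depending on the library, and this limit covers counting error only. No change could be measured for it.

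CDK6, the kinase partner of the D-type cyclins, was at 203, 198 and 194 CPM in DMSO and at 136, 151 and 137 CPM in TR-107. The groups did not overlap, and CDK6 was 1.40-fold lower (log2 fold change -0.49 ± 0.048, SE; edgeR adjusted p = 7.78e-12). CDK6 (gene ID 1021) spans chromosome 7, 92604921 to 92836573. Its overlapping antisense RNA CDK6-AS1 had at most 18 counts, in TR-107 replicate 1, and was too low to test. CDK4, the other kinase of D-type cyclins, was not called (217 ± 4.78 CPM in DMSO and 225 ± 7.83 CPM in TR-107, SD, n = 3; 95% interval of the log2 fold change -0.039 to 0.14; edgeR adjusted p = 0.344).

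Levels can be compared between genes only per length, here as CPM per kb of the longest GENCODE 29 transcript with a RefSeq match. In DMSO the order was CCND1 (234 ± 1.08, SD, n = 3), CDKN1A (55.4 ± 2.33), CCND3 (27.5 ± 1.17), CDK6 (17.1 ± 0.373) and CDKN1B (12.7 ± 0.848). CDKN2D (6.21 ± 1.42), CDKN2C (4.75 ± 0.592), CDKN2B (1.01 ± 0.335) and CDKN1C (0.542 ± 0.132) followed, and the libraries of CDKN2D and CDKN2C overlapped. In TR-107, CDKN1A came first (187 ± 1.49 CPM per kb, SD, n = 3) and CCND1 second (178 ± 4.27), with no overlap between their libraries. CDKN1B (15.9 ± 0.0577) and CDK6 (12.2 ± 0.734) then stood above CCND3 (9.44 ± 0.400), and CDKN2D (4.21 ± 0.656) above CDKN2C (2.60 ± 0.633) and CDKN2B (2.33 ± 0.0917), whose libraries overlapped. The order depends on the length used: per kb of coding sequence, CCND1 (865) and CDKN1A (863) were almost level in TR-107. On that scale CDK6 (203) stood above CCND3 (84.6) and CDKN2C (19.6) above CDKN2D (17.7) in DMSO. In TR-107, CDK6 (145) stood above CDKN1B (71.0), and CDKN2B (22.0) above CDKN2D (12.01) and CDKN2C (10.8).

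Within each family the make-up shifted, on the same scale. CDKN1A made up 79.7% to 82.4% of the CIP/KIP sum in the DMSO libraries and 91.9% to 92.1% in the TR-107 libraries, while the sum went from between 67.5 and 70.5 to between 202 and 206 CPM per kb. CCND3 made up 10.2% to 10.9% of the D-type cyclin sum in DMSO and 4.95% to 5.14% in TR-107, and CCND1 the rest. The INK4 sum is over the members CDKN2B, CDKN2C and CDKN2D only. It leaves out CDKN2A, which is not a member and had a mean of 55.7 CPM in DMSO and 66.6 CPM in TR-107, not scaled to length. CDKN2B made up 6.00% to 10.0% of the sum of those members in DMSO and 23.4% to 29.4% in TR-107, and its share of all INK4 RNA was not measured. The INK4 sum itself overlapped between the groups, at 10.0 to 13.8 CPM per kb in DMSO and 7.83 to 10.4 in TR-107. Per kb of coding sequence, the CDKN2B share was 14.8% to 23.9% in DMSO and 46.3% to 54.4% in TR-107, and the CCND3 share 6.69% to 7.19% and 3.19% to 3.31%, so the direction was the same and the sizes depend on the length used. These shares are given as a description and were not tested.

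**Figure D3:**
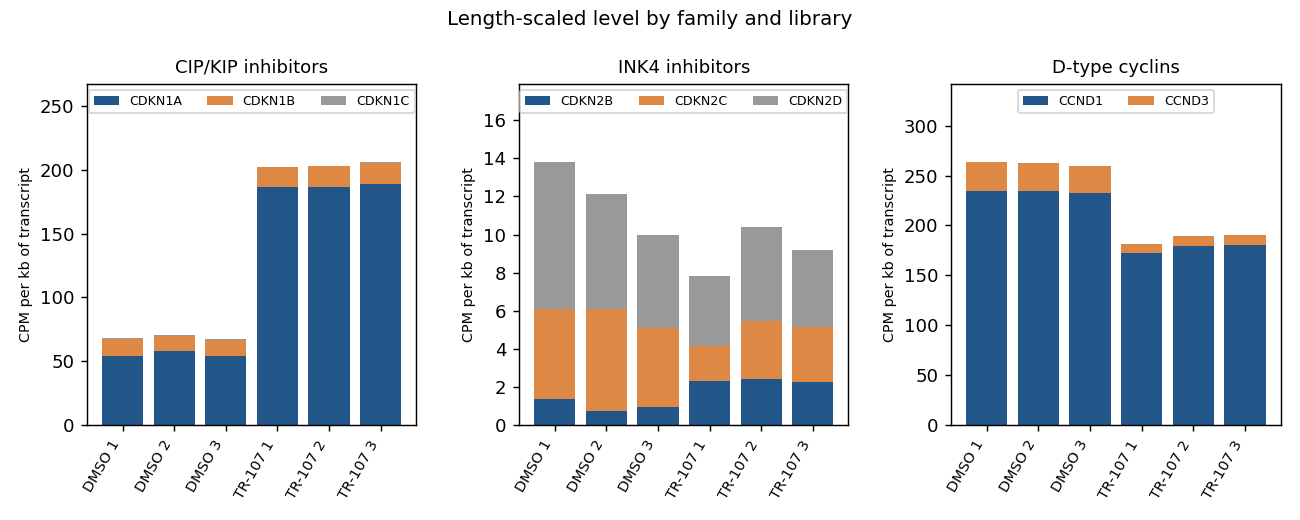
CPM per kb of transcript (vertical axes, from 0) for each of the 6 libraries, stacked by gene. The panels hold the CIP/KIP inhibitors, the INK4 inhibitors CDKN2B, CDKN2C and CDKN2D without CDKN2A, and the detected D-type cyclins. The CIP/KIP bars are taller in all 3 TR-107 libraries, mostly from CDKN1A, the D-type cyclin bars are shorter, and the INK4 bars overlap in height.

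Other genes of the pathway were taken from 4 lists. Of 9 further G1 kinases, cyclins and activators, 5 fell and 1 rose, beside 28.6% and 29.2% of all genes tested. Their median log2 fold change was -0.45, beside 0.012 for all genes tested. CDC25A, the phosphatase that activates CDK2, was 2.70-fold lower, at 77.4 ± 4.79 CPM in DMSO and 28.6 ± 2.54 CPM in TR-107 (SD, n = 3). CCNE2, an E-type cyclin of CDK2 (overlapped by INTS8), was 1.86-fold lower. CCNA2, cyclin A2 (overlapped by EXOSC9), was 1.84-fold lower, and CDK2 was 1.36-fold lower. Other genes named in this report also overlap RefSeq genes, among them CDK4 (TSPAN31), SKP2 (NADK2), RB1 (LPAR6), RBL2 (AKTIP) and CDKN2A (CDKN2B-AS1). CCNH, a subunit of the CDK-activating kinase, rose 1.42-fold.

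Of 13 RB family and E2F/DP genes, 7 fell and 4 rose (median log2 fold change -0.23), beside 28.6% and 29.2% of all genes tested. The activating factors E2F2 and E2F1 were 2.31-fold and 1.70-fold lower, the repressor E2F8 1.85-fold lower, and TFDP1, the DP partner of E2Fs, fell from 379 ± 3.67 to 232 ± 10.3 CPM (SD, n = 3). TFDP2 (1.43-fold), the repressor E2F7 (1.41-fold) and RBL2, the p130 pocket protein (1.18-fold), rose. RB1, the substrate of cyclin D kinases, rose 1.11-fold (edgeR adjusted p = 0.0159). Leaving out DMSO replicate 1 (0.0657) or DMSO replicate 2 (0.0838) ended that call. Both RB1 (adjusted p = 0.157) and RBL2 (0.0632) lost their calls with library size alone.

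Of 13 genes for the breakdown of p21, p27 and D-type cyclins, 6 fell and 3 rose (median log2 fold change -0.094). Over all genes tested, 28.6% fell and 29.2% rose. SKP2, the ubiquitin ligase subunit that recognises p27, was 2.32-fold lower, at 90.5 ± 4.14 CPM in DMSO and 38.9 ± 4.17 CPM in TR-107 (SD, n = 3). CKS1B, its partner for p27, rose 1.33-fold. DTL, which brings p21 to the CUL4 ligase, was 1.34-fold lower and CUL4B 1.28-fold lower. FBXO4, a ligase subunit linked to cyclin D1, rose from 3.85 ± 0.505 to 8.12 ± 0.653 CPM (SD, n = 3). GSK3B, which marks cyclin D1 for breakdown, rose 1.23-fold. AMBRA1, the ligase adaptor for all D-type cyclins, was not called (35.6 ± 0.760 and 33.8 ± 1.29 CPM, SD, n = 3; edgeR adjusted p = 0.457).

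Of 19 transcription factors known to act on the members' genes, 13 rose and 4 fell (median log2 fold change 0.25). Over all genes tested, 29.2% rose and 28.6% fell. KLF4, an activator of CDKN1A, rose 2.80-fold and ATF4, the factor of the integrated stress response, 1.94-fold. TCF7L2 and CTNNB1, the Wnt factors that act on CCND1, were 1.74-fold and 1.23-fold lower. FOXM1, a factor of G2 genes, was 1.57-fold lower and MYC, which represses CDKN1A and CDKN2B, 1.15-fold lower. Whether any of these changes bears on the members was not tested.

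**Figure D4:**
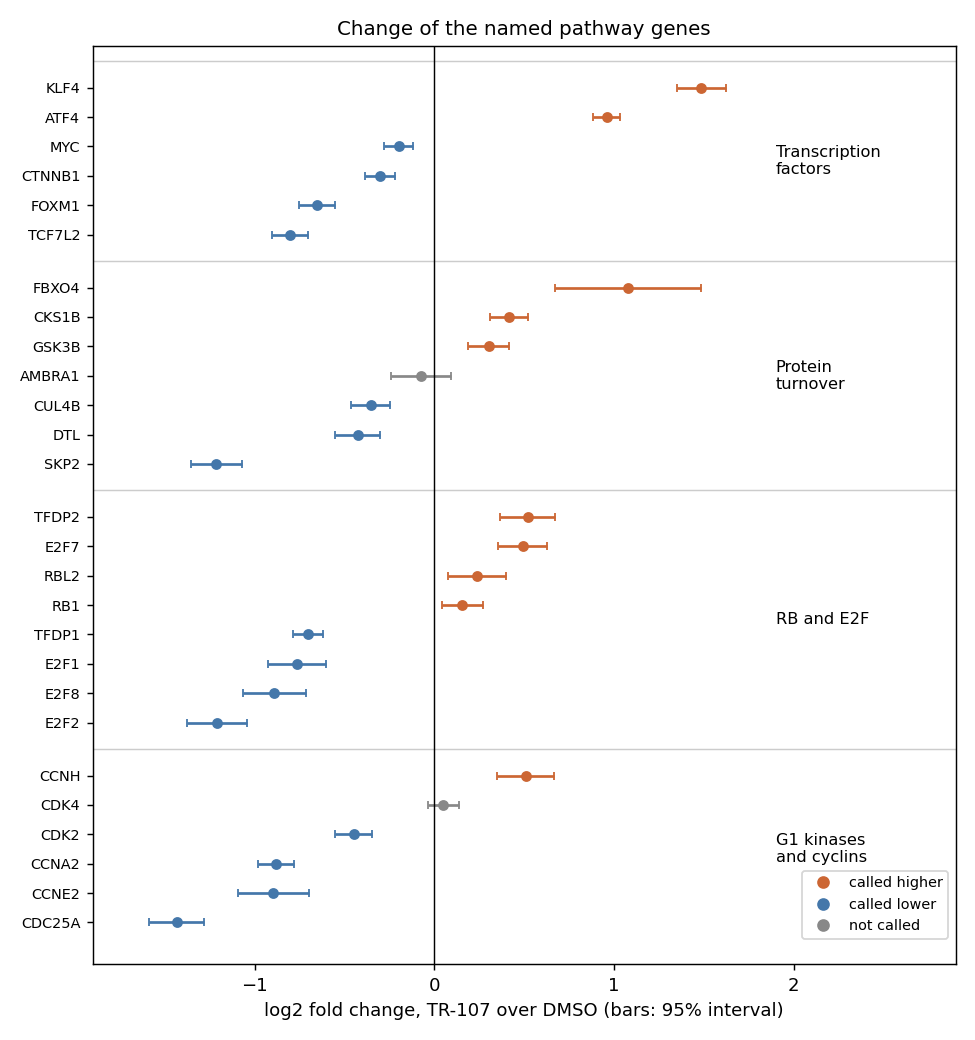
The log2 fold change of TR-107 over DMSO (horizontal axis) with 95% intervals from the edgeR fit (bars) for the genes named from the 4 pathway lists, coloured by call. SKP2, CDC25A and E2F2 lie at the left and KLF4, FBXO4 and ATF4 at the right, and the intervals of CDK4 and AMBRA1 cross 0.

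Among the transcripts next to the members, CDKN2A, the INK4 and ARF gene beside CDKN2B, rose 1.19-fold (55.7 ± 2.49 to 66.6 ± 4.07 CPM, SD, n = 3; edgeR adjusted p = 0.00111). KCNQ1OT1, the imprinted noncoding RNA of the CDKN1C region, was not called (edgeR adjusted p = 0.330; it was called, at a log2 fold change of -0.81, without TR-107 replicate 1). PANDAR, next to CDKN1A, had at most 7 counts in any library. As a description, the genes whose log2 CPM over the 6 libraries was most like that of CDKN1A were SQSTM1 (Pearson's r = 0.9999), AARS1, VGF and SLC3A2 (0.9998 each). Those most like CCND3 were SRSF2 (0.9998), INSIG1 (0.9997), KARS1 (0.9996) and EIF3B (0.9994). With 2 groups of 3 libraries, these values mostly reflect the gap between the groups.

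The libraries held 17264039 to 23708135 counts, with ranges that overlapped between the groups. Of 7 markers of colorectal epithelium, 6 had counts that could be tested, KRT8 at 2611 to 2771 CPM and EPCAM at 368 to 402 CPM among them, while VIL1 had 2 counts in all. Of those 6, 3 rose and 1 fell, beside 29.2% and 28.6% of all genes tested. The summed level of the epithelial markers was 5157 to 5208 CPM in DMSO and 5656 to 5791 CPM in TR-107. Among 9 markers of other cell types, PTPRC and CD3E had no count, and COL1A1 (12.9 to 18.2 CPM) was the highest. The summed level of those 9 markers was 15.0 to 18.0 CPM in DMSO and 17.5 to 19.6 CPM in TR-107, and neither of the 2 that could be tested was called. The part of either list in the members' results was not tested.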

How the data were processed

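The 6 deposited files, 1 a library, hold raw counts by gene. The submitters' processing notes name FastQC, Trimmomatic, HISAT2, featureCounts and the build hg38. Versions, annotation, strand and multi-mapping settings were not given in the sources used here. Where genes overlap, their reads may therefore be split or lost. Of 28395 gene IDs, 27745 had a symbol in RefSeq (GRCh38.p14). The rest, 0.0390% to 0.0502% of counts, stayed in the fit.

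The test was edgeR 4.0.16 (R 4.3.3): TMM scaling, filterByExpr, robust quasi-likelihood fit on group alone, Benjamini-Hochberg adjustment over 13767 genes at 0.05. SE is the log2 fold change over the root of F. Levels per kb used GENCODE 29 transcript lengths. Alternatives used limma 3.58.1 and DESeq2 1.42.0, other scalings, filters and designs. Same-numbered libraries did not deviate together (r of -0.031, -0.019 and 0.049). Counts were also simulated with these library sizes (13618 genes tested). Changes of 1.3, 1.5, 2 and 4-fold were called in the right direction for 54%, 78%, 94% and 100% of genes, and 0.0671% of unchanged genes were called. The simulation changed only 50 genes at each fold and gave every gene the same dispersion. In the data 57.8% of genes were called, so these rates do not carry over to the data.

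The members, lists and naming rules were chosen with earlier results of these data known. All members are described. From each pathway list, up to 3 called genes per direction with the smallest p are named, plus 10 genes set by name, the neighbouring transcripts with counts, and the 4 genes most like CDKN1A and CCND3 (mean of at least 10 CPM, log2 CPM with a prior count of 2). A gene of the naming rule and a marker are not reported here, though the counts over their lists include them. The promoter motifs were chosen after the main results were seen.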

Additional observations from a re-analysis of the deposited data

How the results depend on the processing

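Relative log expression, upper-quartile factors and library size alone each gave 3 members higher and 5 lower. So did keeping every gene with a count, requiring 1 CPM in 3 libraries, DESeq2, limma-voom and leaving out mitochondrially encoded genes. Across these settings, 7755 to 8021 genes were called in all. Keeping every gene with a count called 7940 of 19304 genes, and requiring 1 CPM called 7869 of 12734. Library size alone gave 43.4% of its calls as higher, beside 50.5% in the main fit. With the replicate number as a block, 3 rose and 5 fell, all 8 of them the members called without it, and 7918 genes were called in all, against 7956. The labels give replicate numbers without saying whether these pair the libraries. Without 1 library at a time, 3 members rose and 4 to 5 fell, the lost one being CDKN2D. In those fits 7323 to 7649 genes were called in all, of 13878 to 14175 tested. In a test against 1.5-fold, 2 members rose and 1 fell, since that test asks for a larger change. It called 1723 of 13767 genes, 1029 higher and 694 lower. CDK4, uncalled, changed sign with library size alone (log2 fold change -0.015), a scaling that moved the median of all genes to -0.052. Over the 16 settings, 137 of the values of the 9 tested members kept their direction and call, 7 lost the call and 0 reversed. Depth limits CDKN1C, with 6 to 32 counts a library, and CCND2, with none.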
